A study of Rattus norvegicus with 21 samples.

Results

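Chi3l1 and Nos2 were described together as a pair of activation markers of brain myeloid cells. They are the 2 features that the deposited files name by gene symbol, out of 30406 features in all, the others being 30404 transcripts with rat Ensembl identifiers. Chi3l1 (chitinase 3-like 1, also called YKL-40) is a secreted glycoprotein that binds chitin but does not cleave it, and it is made by macrophages, neutrophils and reactive astrocytes in inflamed tissue. Nos2 is the inducible nitric oxide synthase, which makes nitric oxide from arginine and is switched on by bacterial products and inflammatory cytokines. In rodents Nos2 is the textbook marker of the classically activated macrophage, while chitinase-like proteins as a family are commonly listed with the alternatively activated state.

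The cells came from adult rats of a strain written as Winstar in the labels, with either a sham operation or a temporary block of the middle cerebral artery by a filament (MCAO, a stroke model), withdrawn after 90 min. Cells of the operated side were sorted into microglia (CD11b+CD45low) and blood-derived macrophages (CD11b+CD45high), and their poly-A RNA was sequenced. Titles give 2 sets of 3 groups, which are microglia and macrophages after MCAO and microglia after the sham operation. The 24h set has 3 libraries per group, and a set marked 7D has 4. No sham macrophages were among the samples, so macrophages were compared with microglia only. Several labels conflict: microglia replicate 3 and macrophages replicate 3 of the 24h set have each other's cell fraction, all 12 libraries of the 7D set carry 24 h in the treatment field, and the 7D macrophages carry the source name and cell fraction of microglia. The sham libraries have a treatment field of PBS injection. Groups followed the titles. The sorted cell types could not be checked against their markers, because none of the transcript identifiers was paired with a gene name. The labels do not name the animal behind each library, so each p-value measures only how these libraries spread. In bulk RNA, fewer cells of a type and less RNA per cell cannot be told apart. The transcripts summed to between 6923630 and 9668961 expected counts in the 9 libraries of the 24h set and between 11115359 and 15401910 in the 12 of the 7D set. Time by title and set coincide, so a level in one set against the other carries both.

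The promoter of Chi3l1 is shown because the gene's level spanned 85.8-fold across libraries. RefSeq (build GRCr8) places the 250 bases before its start at chr13:48193589-48193838 on the plus strand, printed 5′ to 3′ with no capitals because none of the searched motifs was found.

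Chi3l1 promoter: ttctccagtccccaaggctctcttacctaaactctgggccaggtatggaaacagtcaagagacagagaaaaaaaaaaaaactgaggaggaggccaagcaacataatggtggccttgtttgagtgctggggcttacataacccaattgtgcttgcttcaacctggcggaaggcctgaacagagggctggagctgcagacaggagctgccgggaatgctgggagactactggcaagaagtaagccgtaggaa

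Both strands were searched for the letters TTCNNNGAA (STAT), TGANTCA (AP-1), TTGCNNAA (C/EBP) and GAGGAA (PU.1), and for the NF-kappaB motif. These occur in 7.67%, 6.34%, 9.22%, 23.3% and 6.33% of the 33469 rat promoters of the same length. Absence from this window says only that these letters are not in it. For Nos2 no promoter was printed.

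Chi3l1 was highest in the 24h macrophages. Levels are CPM, RSEM's expected counts scaled by each library's transcript sum, and these libraries held 120.2, 94.8 and 167.7 CPM, a mean of 127.6 ± 37.0 (SD, n = 3). All 3 lay above every other library of the study. The 24h MCAO microglia were spread widely, at 49.9, 5.79 and 13.5 CPM (23.1 ± 23.6, n = 3), and overlapped the sham microglia of their set at 10.7, 19.1 and 17.7 CPM (15.8 ± 4.50, n = 3). Replicate 1 alone held 72.2% of the Chi3l1 in the 24h MCAO microglia.

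In the 7D set the MCAO microglia held the least Chi3l1, at 2.32, 2.19, 3.70 and 1.95 CPM (2.54 ± 0.79, n = 4). Their sham microglia held 17.7, 13.5, 7.34 and 13.9 CPM (13.1 ± 4.29, n = 4), all above all 4 MCAO microglia libraries. The 7D macrophages held 4.45, 7.68, 7.78 and 33.9 CPM (13.4 ± 13.7, n = 4), also all above the MCAO microglia, and replicate 4 carried 63.0% of the group's sum. From highest to lowest mean the order was 24h macrophages, 24h MCAO microglia, 24h sham, 7D macrophages, 7D sham and 7D MCAO microglia. The libraries of neighbouring groups overlapped from the second to the fifth place.

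Nos2 followed a similar order at lower levels. The 24h macrophages held 21.3, 6.09 and 33.1 CPM (20.2 ± 13.6, n = 3), the 24h MCAO microglia 9.51, 0.62 and 2.65 CPM (4.26 ± 4.66, n = 3) and the sham microglia of that set 0.53, 3.47 and 1.65 CPM (1.88 ± 1.48, n = 3). Macrophages did not overlap sham, whereas microglia replicate 1 lay above macrophages replicate 2. That microglia library carried 74.4% of its group's Nos2.

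The 7D MCAO microglia were at or near the limit of detection for Nos2, with 3, 0, 0 and 4 counts (0.128 ± 0.149 CPM, n = 4). A count of 0 allows up to 3 counts, or 0.227 CPM in replicate 2 and 0.265 CPM in replicate 3, for counting error only. The 7D sham microglia held 4.52, 2.34, 0.66 and 2.31 CPM (2.46 ± 1.58, n = 4), all above the MCAO microglia. The 7D macrophages held 0, 1.16, 0.31 and 23.1 CPM (6.13 ± 11.3, n = 4), the 0 allowing up to 0.215 CPM, and replicate 4 carried 94.0% of the sum. From highest to lowest mean the groups ran 24h macrophages, 7D macrophages, 24h MCAO microglia, 7D sham, 24h sham and 7D MCAO microglia, and the libraries of neighbouring groups overlapped except between the last 2.

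**Figure D1:**
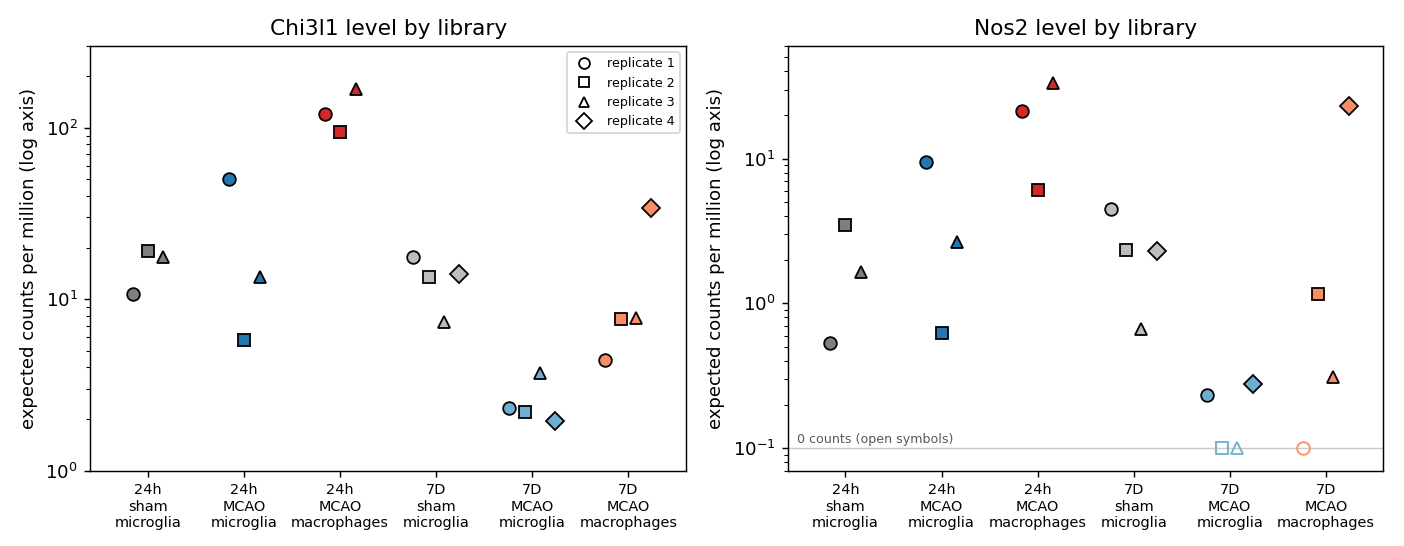
Chi3l1 (left) and Nos2 (right) in each of the 21 libraries, in CPM on a log axis, with symbols for replicate numbers and open symbols for 0 counts, drawn at 0.1. The 24h macrophages are highest for Chi3l1 (94.8 to 167.7 CPM), and 7D macrophages replicate 4 stands above its group for both genes.

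Per kilobase of effective length, Chi3l1 lay between percentiles 30.0 and 93.95 of the detected transcripts of its library, and Nos2, where detected, between 6.39 and 55.9. Chi3l1 was thus among the more abundant features in 24h macrophages, at percentiles of 91.3, 89.2 and 93.95, and Nos2 stood at 46.2, 29.8 and 55.9 there. Group membership accounted for 82.6% of the variance of log2 Chi3l1 over the 21 libraries and for 58.1% of that of Nos2.

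The macrophage excess over sham in the 24h set was present for both genes. In edgeR's quasi-likelihood test, 2 of the 2 passed an adjusted p of 0.05, where 69.8% of all features tested passed. Chi3l1 was higher by 3.07 ± 0.65 on the log2 scale (SE, adjusted p = 0.00239) and Nos2 by 3.44 ± 0.98 (adjusted p = 0.0112). Without both libraries whose cell fraction field conflicts, the Nos2 call was lost at 2.83 (edgeR adjusted p = 0.054). With groups taken from that field both calls were lost (Chi3l1 2.31, edgeR adjusted p = 0.14, and Nos2 2.42, adjusted p = 0.18). That grouping exchanges microglia replicate 3 and macrophages replicate 3, whose other transcripts stood near the groups of their titles, as given below.

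Macrophages against MCAO microglia of the 24h set separated Chi3l1, at 2.45 ± 0.62 (edgeR adjusted p = 0.0105). Nos2 differed by 2.23 ± 0.88 and missed the threshold (adjusted p = 0.0634), so 1 of the 2 passed beside 48.8% of all features. Nos2 passed without microglia replicate 1 (3.61, adjusted p = 0.0156) or macrophages replicate 2 (2.64, adjusted p = 0.032), and Chi3l1 was 3.71 without microglia replicate 1 (adjusted p = 0.000327). Leaving out the 2 conflicting libraries took Chi3l1 to 1.89 (adjusted p = 0.11), and by the cell fraction field its difference was 0.00027 (adjusted p = 1). For MCAO microglia against sham in this set neither gene passed, beside 45.5% of all features. Chi3l1 differed by 0.61 ± 0.66 (adjusted p = 0.473) and Nos2 by 1.21 ± 1.00 (adjusted p = 0.356), and without microglia replicate 1 the differences were -0.67 and -0.20.

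In the 7D set Chi3l1 fell in MCAO microglia against sham by 2.30 ± 0.58 on the log2 scale (edgeR adjusted p = 0.00673). Nos2 differed by -4.05 ± 1.69 (adjusted p = 0.0692), a fitted value that depends on the libraries at 0. Thus 1 of the 2 genes passed beside 46.2% of all features tested. Against MCAO microglia, the 7D macrophages held more Chi3l1 by 2.46 ± 0.58 (adjusted p = 0.0188), and Nos2 differed by 5.50 ± 1.69 (adjusted p = 0.0581). This comparison called 11.0% of all features, and 1 of the 2 genes was among them. Leaving out microglia replicate 1, 2 or 4 ended the Chi3l1 call with little change in the difference (2.42, 2.40 and 2.35, adjusted p = 0.0547, 0.0543 and 0.0654), and without macrophages replicate 4 the differences were 1.44 for Chi3l1 (adjusted p = 0.0203) and 1.95 for Nos2 (adjusted p = 0.374). Nos2 passed against MCAO microglia without macrophages replicate 1 (5.94, adjusted p = 0.0294), macrophages replicate 3 (5.92, adjusted p = 0.0462) or sham replicate 3 (5.53, adjusted p = 0.0494).

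Nos2 also passed in 7D microglia against sham without macrophages replicate 1 (-4.03, edgeR adjusted p = 0.037) or replicate 4 (-4.03, edgeR adjusted p = 0.0118). Neither library is in the groups compared. They enter that fit through the shared spread, the filter on low counts, the scaling and the adjustment.

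Between 7D macrophages and sham microglia neither gene passed, beside 56.6% of all features. The differences were 0.16 ± 0.53 for Chi3l1 (edgeR adjusted p = 0.819) and 1.45 ± 1.25 for Nos2 (adjusted p = 0.348). Both signs rested on macrophages replicate 4: without it Chi3l1 differed from sham by -0.84 (adjusted p = 0.041) and Nos2 differed by -2.08.

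Both genes spread between replicates more than most transcripts. The biological coefficient of variation of edgeR was 0.529 for Chi3l1 and 0.767 for Nos2 in the 24h set, where the medians of transcripts at a similar level were 0.0917 and 0.168. These put Chi3l1 at percentile 99.0 of 2070 such transcripts and Nos2 at percentile 96.3 of 1631. In the 7D set the values were 0.524 (median 0.187, percentile 94.6 of 1661) and 1.37 (median 0.281, percentile 97.1 of 1221).

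The libraries that were high for one gene tended to be high for the other. In 5 of the 6 groups the same library was highest for both genes, and in the 3 groups of the 24h set the full order of libraries was the same. After subtracting group means, log2 levels correlated over the 21 libraries with Pearson r = 0.78 (permutation within groups, p = 0.00136, adjusted over 7 relations 0.00952) and Spearman rho = 0.68 (p = 0.00508, adjusted 0.0324). Without the 2 libraries farthest from the median of Chi3l1, 24h MCAO microglia replicate 1 and 7D macrophages replicate 4, r was 0.59 (permutation p = 0.022).

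Within the 24h set alone (9 libraries) r was 0.91 (exact permutation p = 0.00926, adjusted 0.0243), and 0.94 without its 2 farthest libraries (exact permutation p = 0.0278). Among the 12 libraries of the 7D set r was 0.78 (permutation p = 0.0465, adjusted 0.0651) with rho = 0.47 (p = 0.171), and without macrophages replicates 1 and 4, the 2 farthest, it was 0.16 (permutation p = 0.68), so the relation there rested on those libraries. Left out singly, replicate 1 gave 0.68 (permutation p = 0.121) and replicate 4 gave 0.43 (p = 0.218), while without the 3 libraries with Nos2 at 0, replicate 1 among them, r was 0.95 (p = 0.0278). The 7 sham libraries, which hold no infiltrating fraction by title, gave r = 0.97 (exact permutation p = 0.0139, adjusted 0.0243), 0.96 without 7D sham replicate 1 or 3 (exact permutation p = 0.0556 for each) and 0.86 without the 2 farthest (exact permutation p = 0.167). For the 14 MCAO libraries r was 0.76 (permutation p = 0.0127, adjusted 0.0243), 0.57 without 7D macrophages replicate 4 (p = 0.065) and 0.45 without the 2 farthest (p = 0.19). Paired values of a library share its total, and both genes were scaled by it.

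**Figure D2:**
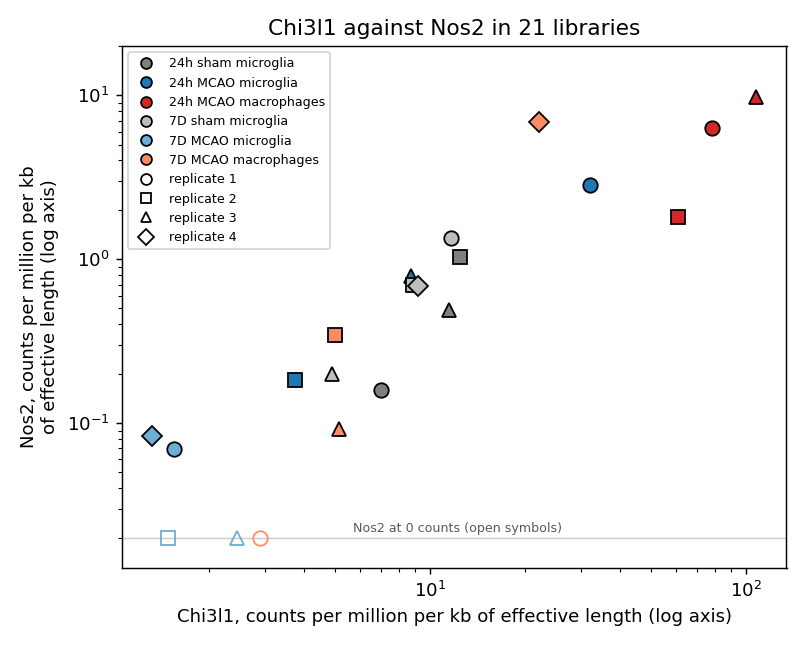
Nos2 against Chi3l1 in each library, both as CPM per kilobase of effective length on log axes, with colours for groups and symbols for replicates. Open symbols are the 3 libraries with Nos2 at 0 counts, drawn at 0.02. Libraries run from low in both genes to high in both, and 7D macrophages replicate 4 lies above the others for Nos2 at its Chi3l1 level.

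How far each MCAO library lay from microglia towards macrophages was measured on the transcripts that passed the filter on low counts in its set. The members' lines were left out, but no other transcript that passed was. The mean of MCAO microglia stood at 0% and that of macrophages at 100%, each computed without the library itself. The 24h microglia library with the most of both genes, replicate 1, lay at 22.7%, and replicates 2 and 3 at -0.55% and 9.76%. Among the 24h macrophages, replicate 2 held the least of both genes and lay at 73.6%, with the others at 100.7% and 96.2%. Replicate 3 of both 24h groups, whose cell fraction field conflicts, thus lay nearer the group of its title on this line. The 7D macrophages lay at 78.4%, 95.8%, 73.95% and 80.9%, so replicate 4 was not at the extreme of its group there. The 7D microglia lay at 30.2%, 24.1%, 19.2% and 4.82%, where replicate 3, with the most Chi3l1, was the third and replicate 4, with the most Nos2 at 4 counts, was the lowest.

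Over the 14 MCAO libraries the within-group relation of this position with Chi3l1 was r = 0.41 (permutation p = 0.181, adjusted 0.211), and with Nos2 it was r = 0.32 (p = 0.284). Without 7D macrophages replicate 2 the relation with Chi3l1 was 0.52 (permutation p = 0.0338). On a second line, from 7D to 24h macrophages, the 4 libraries of 7D macrophages lay at 6.09%, 11.4%, 6.01% and 14.8%. Replicate 4 was the farthest along that line, and the part of this in its levels of both genes was not tested.

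The ratio of Chi3l1 to Nos2 per effective length exceeded 1 in all 21 libraries, with 0.5 added to each count on the log2 scale and the limit of 3 counts where Nos2 was at 0. In the 24h set it was 11.4, 20.3 and 11.05 in MCAO microglia, 12.3, 33.8 and 10.99 in macrophages, and 44.3, 12.1 and 23.5 in sham microglia. These ranges overlap. The library with the least Nos2 of its group had the highest ratio in each of the 3 groups.

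In the 7D sham microglia the ratio was 8.62, 12.6, 24.8 and 13.3. MCAO microglia gave 22.4 and 15.9 in replicates 1 and 4, and against 3 counts of Nos2 per library it was at least 22.0 and 31.0 in replicates 2 and 3. The 7D macrophages covered the widest range, at least 45.3 in replicate 1 against the same limit, 14.5 in replicate 2, 55.8 in replicate 3 and 3.22 in replicate 4. Replicate 4 thus had the most of both genes of its group and the lowest ratio of the study, its Nos2 exceeding that of the other 7D macrophages by a larger fold than its Chi3l1.

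No comparison of the log2 ratio passed. The 9 tests, 3 contrasts in each set and 3 over both sets, all had an adjusted p of 0.754 in the exact permutation test. Over both sets MCAO microglia differed from sham by 0.61 (exact p = 0.371), macrophages from sham by 0.32 (p = 0.704) and macrophages from microglia by -0.28 (p = 0.754), where the smallest p this design allows is 0.00143. Within sets, microglia minus sham was -0.73 in the 24h set (exact p = 0.2, smallest possible 0.1) and 1.94 in the 7D set (exact p = 0.143, smallest possible 0.029). The second value rests on 2 libraries with Nos2 at 0 and the 0.5 added: it was 0.86 with 2 added and 0.32 without those libraries.

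**Figure D3:**
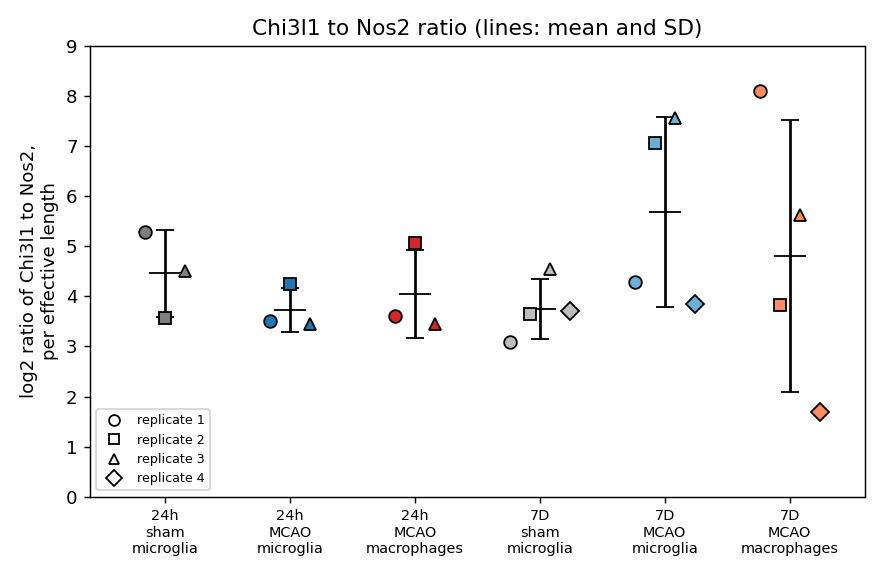
Log2 ratio of Chi3l1 to Nos2 per effective length in each library (0.5 counts added), with bars for the group mean and SD. All 21 points are above 0, and the 7D macrophages range from 1.69 to 8.10.

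The deposited length of Chi3l1 varied between libraries. For each library the files give a length for Chi3l1, which ran from 1658 to 1712 nt, while that of Nos2 was 3535 nt in every library. RSEM weights a gene's length by the share of its transcripts, and RefSeq lists 2 curated Chi3l1 transcripts. Of the 21 libraries, 9 stood at 1712 nt and 2 at 1658 nt.

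The longest value was found in all 3 of the 24h MCAO microglia libraries and in 2 of the 3 macrophage libraries, the other at 1711.02 nt, while the 24h sham microglia had 1693.34, 1698.15 and 1708.56 nt. In the 7D set the macrophages had 1712, 1712, 1702.82 and 1712 nt and the MCAO microglia 1681.43, 1658, 1698.60 and 1658 nt, with no overlap. The 7D sham microglia lay at 1708.09, 1703.01, 1679.94 and 1712 nt. In the 7D set macrophages exceeded microglia by 35.7 nt (exact permutation p = 0.029, the smallest possible, adjusted 0.12). None of the 9 length comparisons passed after adjustment.

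If only 2 forms of 1658 and 1712 nt exist, the shorter one made up 1.31, 2.19, 0.92 and 1.95 CPM in the 7D MCAO microglia, of 2.32, 2.19, 3.70 and 1.95 CPM in all. In the 24h macrophages it made up 2.18, 0 and 0 CPM, and in the 24h sham microglia 3.69, 4.89 and 1.13 CPM. On that reading, nearly all of the Chi3l1 of 24h macrophages was of the longer form. The division of reads between forms is an estimate that rests on 28 to 42 counts in each of the 7D microglia libraries.

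**Figure D4:**
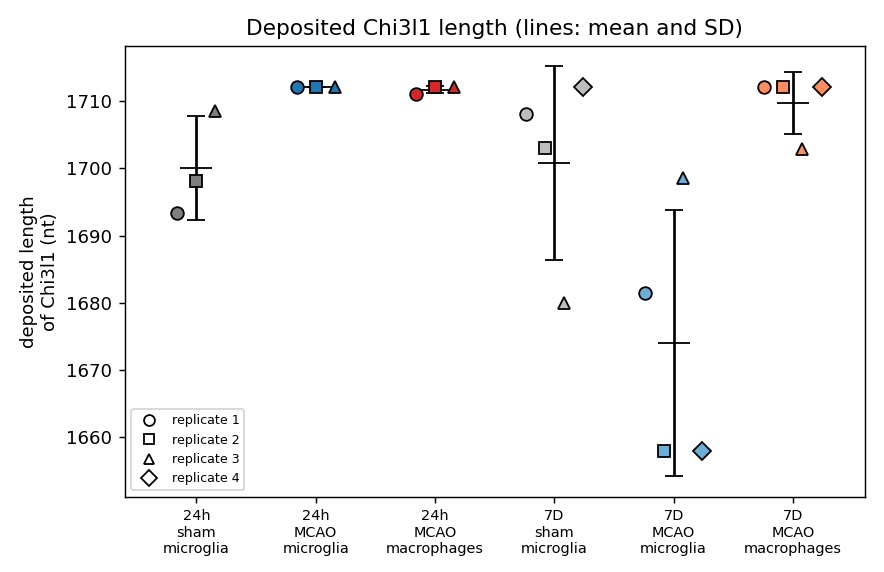
Deposited length of Chi3l1 by library in nt, with symbols for replicates and bars for the group mean and SD, on an axis that does not start at 0. The 7D MCAO microglia lie at 1658 to 1698.60 nt, below the 7D macrophages at 1702.82 to 1712 nt.

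Chi3l1 counts were whole numbers in all 21 libraries, and Nos2 counts were not whole in 15 of the 18 libraries that had any (tolerance 0.001). RSEM gives fractions where reads match more than one feature. RefSeq lists a transcribed pseudogene of Nos2, Nos2-ps1, on the same chromosome, 10. How alike their sequences are, and whether reads were divided between them, was not tested, so the level of Nos2 carries that uncertainty.

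The members' lines imply a library total 9.88% to 17.9% above the transcript sum. Whether they come from a quantification apart from that of the transcripts was not tested. Among the transcripts, the closest in counts to each member was sought after the values had been seen. For Chi3l1 it was ENSRNOT00000071475 (1599 nt), with 5345.7 counts over all libraries beside 6016 for Chi3l1, and its count was 85% to 100% of that of Chi3l1 in 16 of 21 libraries. The exceptions included 7D sham replicate 3, with 0 counts beside 86, and 7D MCAO microglia replicate 1, with 12.16 beside 30.

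For Nos2 the closest was ENSRNOT00000016133 (3495 nt), with 1329.79 counts beside 1221.5 for Nos2. It had 349.97 counts beside 309.53 in 24h macrophages replicate 3 and 314.76 beside 355.15 in 7D macrophages replicate 4. At low levels the 2 diverged: it was at 0 in 4 of the 18 libraries with Nos2, and had 3, 4.76 and 7 counts in the 3 libraries where Nos2 was at 0. Whether these transcripts count the same reads as the members was not tested, because the identifiers are not paired with names.

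**Figure D5:**
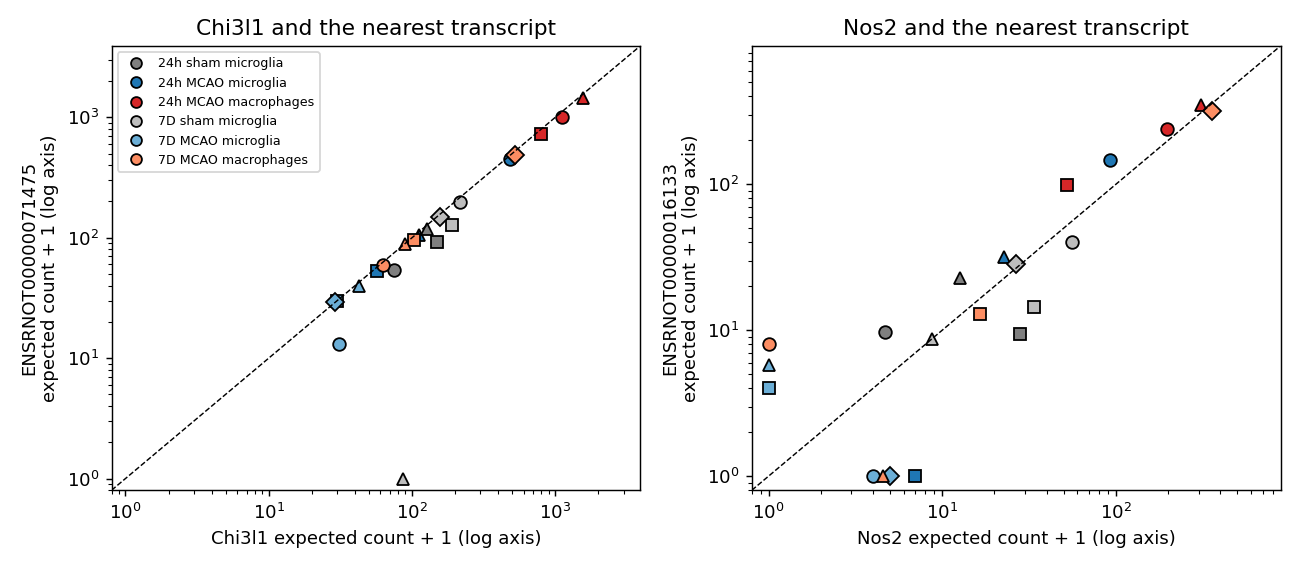
Count of each member against the count of the transcript closest to it, by library (count + 1 on log axes, colours for groups and symbols for replicates), Chi3l1 with ENSRNOT00000071475 and Nos2 with ENSRNOT00000016133, the line marking equal counts. Most Chi3l1 points follow the line except 7D sham replicate 3 (86 against 0), and Nos2 points scatter at low counts.

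Transcripts that vary with each member were ranked over the 7 macrophage libraries, 3 of the 24h and 4 of the 7D set, after subtracting each set's mean from log2 CPM. Of 8969 transcripts whose log2 CPM averaged 3 or more, 55 had r above 0.9 with Chi3l1 and 149 below -0.9, and 71 and 155 did so with Nos2. The members themselves correlated at r = 0.95 over these libraries. Of the 100 transcripts with the highest r for each member, 56 were on both lists, 56% of each.

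Transcript ENSRNOT00000071475, the closest in counts, also ranked first for Chi3l1, at r = 0.9995 in macrophages, 0.91 in the 7 MCAO microglia libraries and 0.84 in the 7 sham libraries. Lowest for Chi3l1 was ENSRNOT00000001503, at r = -0.997, with 97.3, 105.7 and 92.4 CPM in the 24h macrophages and 90.99, 80.2, 81.4 and 58.2 CPM in those of the 7D set. It was lowest where Chi3l1 was highest in both sets. In microglia its r was 0.19, and in sham 0.88, opposite in sign to macrophages.

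For Nos2 the highest was ENSRNOT00000068345, at r = 0.987, with 35.9, 31.9 and 36.1 CPM in the 24h macrophages and 11.5, 14.3, 13.8 and 19.8 CPM in the 7D macrophages. Its r with Nos2 was 0.87 in MCAO microglia and -0.69 in sham microglia. The lowest was ENSRNOT00000003950, at r = -0.993, with 89.0, 94.8 and 87.3 CPM in the 24h macrophages and 70.8, 55.4, 62.7 and 45.3 CPM in the 7D macrophages. Both moved over a far narrower range than Nos2 itself.

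The lists were chosen on macrophages, so their r there is fixed by the choice, and it was described in the other libraries. In MCAO microglia the median r of the Chi3l1 list with Chi3l1 was 0.23 beside 0.11 over all transcripts. Of that list 69 of 100 were positive, beside 57.3% of all. For Nos2 the median was 0.21 beside 0.17, with 76 of 100 positive beside 62.0% of all. Among sham libraries the medians were -0.17 beside 0.07 and -0.18 beside 0.06, with 46 and 42 of 100 positive beside 52.5% of all for each. Without 7D macrophages replicate 4, 15 of the 100 transcripts of the Chi3l1 list and 32 of the Nos2 list remained on them, and 30 were shared.

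The lists were set against the 8969 ranked transcripts in the comparison of macrophages with MCAO microglia. That comparison uses the macrophage libraries on which the lists were chosen, so its counts describe the lists and are no separate test of them. In the 24h set edgeR called 53 of the Chi3l1 list and 61 of the Nos2 list higher, beside 29.8% of the 8969, with median log2 differences of 0.39 and 0.57 beside 0.043. In the 7D set 18 and 28 were called higher beside 7.33%, with medians of 0.083 and 0.16 beside -0.0059. Called lower were 10 and 8 (24h) and 9 and 6 (7D), beside 24.0% and 4.48% of all transcripts fitted. For MCAO microglia minus sham, 22 and 18 (24h) and 26 and 26 (7D) were called higher, beside 31.2% and 29.1% of the 8969. For macrophages minus sham they were 66 and 68 (24h) and 35 and 44 (7D), beside 42.9% and 35.0%. The transcripts of the lists are known here by identifier only, so what they encode was not analysed.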

How the data were processed

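RNA of 21 libraries was quantified with RSEM after bcl2fastq and TopHat2 (genome rn5, per the submitters' processing notes), in versions not given in the sources used here. The deposited files hold 1 library each as RSEM expected counts, which are estimated reads per transcript, beside scaled values that were not tested. In the 2 lines named Chi3l1 and Nos2 the values stand 2 columns right of the deposited headers, so their expected counts, lengths and FPKM (which the authors deposited and which served only for the implied library total) were read from the displaced columns. Other deposited columns (other values, such as lengths) are as RSEM writes them.

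Levels (CPM) are expected counts scaled by the transcript sum. Rounded counts entered edgeR 4.0.16 (R 4.3.3) with TMM factors from the transcripts and the quasi-likelihood F-test (filterByExpr with a minimum count of 10 and minimum total of 15, 1 term per group, 1 fit per set), with Benjamini-Hochberg adjustment over 13083 features (24h) or 13386 (7D). An adjusted p under 0.05 is a call, and standard errors are the size of the log2 fold change over the root of F. The fits were tested on simulated data. Ratios and lengths were tested by two-sided exact permutation, stratified by set where both sets were joined. Correlations used permutations within groups (100000 draws or exact).

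The members, lists and rules were chosen with earlier results of these data known. Beside both members, the transcript with the highest and the one with the lowest r per member in macrophages were named. The length comparison, the transcripts closest in counts and some alternatives were chosen after seeing the data. Lists of cell type markers and pathway genes could not be applied, since 0 of the identifiers were found among 47357 RefSeq genes (GRCr8). The labels do not say that replicate numbers mark shared animals, but same-numbered macrophages and microglia deviated together from their group means across transcripts (24h set, r = 0.14 to 0.18; 7D set, r = 0.22 to 0.30), so these were treated as paired in an alternative. With sham, r took both signs (-0.10 to 0.18), so no steady pairing was seen. For 7D microglia replicates 1 and 3 it was 0.15 and 0.18, as high as in the 24h pairs above. Other alternatives were DESeq2 1.42.0, limma 3.58.1 voom, other scalings, pseudocounts and filters, 1 fit over all libraries, other groupings of the conflicting libraries, and leaving out each replicate.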

Additional observations from a re-analysis of the deposited data

Results flagged for a closer look

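Of 12 combinations of a 4-library group with a quantity (both levels, ratio and length), 3 had a library far from the others. Chance flags about 1 in 20 where values are normally distributed and not tied. Both levels entered as CPM, whose spread need not be normal, and not on the log2 scale. 7D macrophages replicate 4 held 33.9 CPM of Chi3l1, with the other 3 libraries at 4.45 to 7.78, and 23.1 CPM of Nos2, with the others at 0 to 1.16. The third was the Chi3l1 length of 7D macrophages replicate 3, 1702.82 nt, with the others tied at 1712 nt, the longest value, so that any other value would stand out.

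Between the sets, the log2 ratio of Chi3l1 to Nos2 in MCAO microglia minus sham was -0.73 at 24h and 1.94 at 7D by title, and the latter was 0.86 with 2 counts added in place of 0.5 and 0.32 without libraries with Nos2 at 0. Likewise the Chi3l1 length in microglia minus sham was 11.98 nt at 24h and -26.8 nt at 7D. These differences between sets were not tested.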

How the results depend on the processing

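Chi3l1 in 7D microglia against sham kept its direction and its call under every alternative run. At 0 to 4 counts, Nos2 in 7D microglia lay near the limit of a count of 0. Without both 24h libraries of conflicting labels 4251 features were called between macrophages and microglia, in place of 6383, Chi3l1 differed by 1.89 there, and Nos2 against sham by 2.83. With groups from the cell fraction field edgeR called 0 (123 at an unadjusted p under 0.05), with Chi3l1 at 0.00027 and Nos2 at -0.55, and 3567 and 4422 for microglia and macrophages against sham, where macrophages differed by 2.31 (Chi3l1) and 2.42 (Nos2). That field exchanges microglia replicate 3 and macrophages replicate 3, which lay at 9.76% and 96.2% of the line from microglia to macrophages, near the groups of their titles.

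With DESeq2 Nos2 passed for 24h macrophages against microglia (2.25, adjusted p = 0.030), 7D microglia against sham (-4.19, adjusted p = 0.035) and 7D macrophages against microglia (5.66, adjusted p = 0.011). With all 21 libraries in 1 edgeR fit the last 2 also passed (-4.01, adjusted p = 0.049, and 5.51, adjusted p = 0.025). With limma-voom the calls of Nos2 in 24h macrophages against sham (3.41, adjusted p = 0.060) and Chi3l1 in 7D macrophages against microglia (2.08, adjusted p = 0.084) were lost, and 7D macrophages minus sham were -0.23 (Chi3l1) and -1.22 (Nos2). The replicate block changed no call between macrophages and microglia. Against sham, where same-numbered libraries showed no steady pairing, the replicate block gave Nos2 in 7D microglia as -5.04 (edgeR adjusted p = 0.028). It gave 7D macrophages minus sham as -0.15 (Chi3l1) and -0.34 (Nos2).

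Leaving out 1 library each, differences ranged from -0.67 to 1.07 (Chi3l1) and -0.20 to 1.98 (Nos2) for 24h microglia minus sham, 1.63 to 3.61 for Nos2 in 24h macrophages minus microglia, -4.71 to -3.60 for Nos2 in 7D microglia minus sham, -0.84 to 0.50 (Chi3l1) and -2.08 to 1.91 (Nos2) for 7D macrophages minus sham, and 1.44 to 2.78 (Chi3l1) and 1.95 to 6.17 (Nos2) for 7D macrophages minus microglia, where 844 to 2411 features were called.

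No log2 ratio passed under any alternative. Leaving out 1 library each, macrophages minus sham ranged from -0.92 to 0.0073 (24h), -0.039 to 2.10 (7D) and -0.23 to 0.84 (both sets), and macrophages minus microglia from -0.19 to 0.61 (24h), -1.98 to 0.16 (7D) and -0.83 to 0.24 (both sets). A pseudocount of 2 took the last, over both sets, to 0.038. Without the libraries with Nos2 at 0, chosen after seeing the data, 7D macrophages minus sham was -0.039, 7D microglia minus sham was 0.32 (0.86 with a pseudocount of 2), and over both sets microglia and macrophages minus sham were -0.21 and -0.23.

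Without the 2 farthest libraries the correlation was 0.45 (MCAO), 0.86 (sham) and 0.16 (7D set), and with TMM library sizes the last was 0.79 (permutation p = 0.0588), with a pseudocount of 2 it was 0.88 (p = 0.0121), and without libraries with Nos2 at 0 it was 0.95 (p = 0.0278). Spearman's rho was 0.82 (sham) and 0.47 (7D set). Leaving out 1 library each, r ranged from 0.57 to 0.84 (MCAO), 0.96 to 1.00 (sham), 0.43 to 0.89 (7D set) and 0.21 to 0.57 for Chi3l1 with the axis position. The lists shared 30 to 80 transcripts on leaving out 1 library, and 33 without subtracting the set means. Apart from the label groupings, the settings' own construction (other tests, fewer samples) is given, and the cause of each change was not tested.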
